A study of Mus musculus with 9 samples.

Results

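The genes described here build and crosslink elastic fibres. The list held 10 genes, namely the elastin gene Eln, the fibrillin genes Fbn1 and Fbn2, the fibulin genes Fbln1, Fbln2 and Fbln5, the microfibril gene Mfap5 and the lysyl oxidase genes Lox, Loxl1 and Loxl2. A gene was taken from the array rows that carried its symbol and no other, and 8 of the 10 had such a row, out of 19937 genes measured this way on 34760 array rows. Fbn1 was not analysed here, and the row of Loxl2 also carried a second symbol, so it was not used. Each of the 8 genes had 1 row.

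An elastic fibre has a core of elastin, which is secreted as soluble tropoelastin, laid down on a scaffold of fibrillin microfibrils and crosslinked through its lysines. Fibulins and microfibril-associated glycoproteins bind tropoelastin, fibrillin or both, and lysyl oxidases are secreted copper enzymes that oxidise lysines in elastin and collagen so that crosslinks can form. Fibroblasts and smooth muscle cells are well-known producers of these proteins.

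RNA was measured in 3 groups of 3 arrays, all from mouse cells of the strain OG2-GFP/Rosa26-M2rtTA, which carries an Oct4-driven GFP reporter and a doxycycline-responsive transactivator. The first group was fibroblasts at passage 4, derived from mice made with TSKM-iPS cells. TSKM stands for Tet1, Sox2, Klf4 and c-Myc, the factors that the labels give for the iPS cells. The second group was labelled TSKM-3D (called day 3 here) and was such fibroblasts given doxycycline for 3 days, moved at the same time out of feeder medium and into medium for embryonic stem cells. The third was an iPS line at passages 10 to 15, obtained through this secondary system and grown on mitomycin-treated embryonic fibroblast feeders, from which cells were separated by plating for 0.5 h. The iPS arrays come from 1 line, as far as the labels tell. Medium at day 3, and passage and feeder culture in iPS cells, changed together with stage and cannot be told apart from it. The steps named below are differences between these groups and not timing within 1 culture. The labels do not tie the arrays to separate cultures, and p-values therefore reflect array-to-array spread alone, possibly of technical origin.

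Array medians lay between 6.01 and 6.23 on the log2 scale, and correlations across genes were 0.9909 or higher within groups and 0.9548 or lower between groups. The third fibroblast array carries a cell type label of induced cells, while its title, source and passage name fibroblasts; it is used as a fibroblast array, and no call on a member changed without it. Of 11 fibroblast markers none averaged below the array median in fibroblasts, 1 did at day 3 and 1 in iPS cells. None of 8 smooth muscle markers did in fibroblasts either, so this count does not tell the groups or these cell types apart. All 10 of 10 pluripotency markers were called higher in iPS cells than at day 3, where 6.48% of all genes were. At day 3 against fibroblasts 2 of these 10 were called higher, where 3.25% of all genes were. They were Sox2, at 1.39 on the log2 scale, and Pou5f1, which is not a TSKM factor, at 1.85. Of the other TSKM factors, Myc stood 1.60 above fibroblasts at day 3 and Klf4 differed by 0.04. Tet1 fell by 1.13 on its row of highest mean, against the label of those arrays. Tet1 had 3 rows, and its other rows were not examined. The rows of these factors do not separate an introduced copy from the cell's own gene.

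The 3 fibulin genes behaved differently from one another: Fbln1 was called in no comparison, Fbln2 was lower from day 3 on, and Fbln5 was lower in iPS cells only. Their upstream sequences are shown because, with 1 chromosome left out, these were the measured members with a sequence available here. They were not picked by their courses, and a link between sequence and course was not tested. The sequences are the 250 bases before the outermost RefSeq start of each gene (GRCm38.p6), 5′ to 3′ on the gene's strand. Capitals mark any match, on either strand, to 7 motifs: the MYC E-box CACGTG, the KLF motif CCNCNCCC, the AP-1 site TGANTCA, the TEAD site CATTCC, the TATA box TATAAA, the CCAAT box and the Sp1 GC box GGGCGG. KLF and GC box matches can overlap.
Fbln1, chr15:85205699-85205948, plus strand: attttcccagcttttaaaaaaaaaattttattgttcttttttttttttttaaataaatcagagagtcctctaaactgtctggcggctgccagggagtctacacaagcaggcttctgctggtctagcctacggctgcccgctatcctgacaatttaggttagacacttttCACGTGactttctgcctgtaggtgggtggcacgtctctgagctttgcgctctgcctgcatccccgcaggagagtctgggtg
Fbln2, chr6:91212514-91212763, plus strand: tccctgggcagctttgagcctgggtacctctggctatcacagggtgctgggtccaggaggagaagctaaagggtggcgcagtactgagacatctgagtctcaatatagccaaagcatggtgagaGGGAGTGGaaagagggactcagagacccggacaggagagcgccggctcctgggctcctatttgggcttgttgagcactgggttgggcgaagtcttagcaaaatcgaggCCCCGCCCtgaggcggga
Fbln5, chr12:101819120-101819369, minus strand: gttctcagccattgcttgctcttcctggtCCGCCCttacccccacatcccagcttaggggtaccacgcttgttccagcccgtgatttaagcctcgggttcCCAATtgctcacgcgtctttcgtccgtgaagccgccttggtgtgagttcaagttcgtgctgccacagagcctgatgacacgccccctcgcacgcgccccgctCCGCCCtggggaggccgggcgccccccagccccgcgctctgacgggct
The Fbln1 stretch held 1 match, an E-box 81 bases before the start, a motif found in 6.02% of 32851 promoter stretches of this length. The Fbln2 stretch held 2 KLF matches, 126 and 18 bases before the start, the second overlapping a GC box at 16, and these motifs occur in 45.9% and 32.7% of promoter stretches. The Fbln5 stretch held GC boxes at 221 and 48 bases and a CCAAT box at 150, the latter present in 33.8%. GC content was 46.4% for Fbln1, 58.8% for Fbln2 and 65.2% for Fbln5, against a median of 52.4% over all stretches. AP-1, TEAD and TATA matches were present in 6.75%, 12.6% and 12.4% of all stretches and in none of these 3. A match describes letters in this window and nothing about binding.

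When iPS cells were set against fibroblasts (the whole course), 6 of the 8 measured genes were lower, none was higher and 2 were not called, where 13.8% of all 19937 genes were called lower and 7.63% higher, 21.5% in all. Calls required an adjusted p under 0.05 (limma, Benjamini-Hochberg over all genes) together with a change of 2-fold or more. The median log2 difference of the 8 genes was -2.41, against 0.05 over all genes. The falls were largest in Loxl1, Fbln5 and Mfap5, at -3.48, -3.35 and -3.32, and the 2 genes not called were Eln and Fbln1. These are bulk samples, in which fewer cells of a type and less RNA per cell cannot be told apart.

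**Figure D1:**
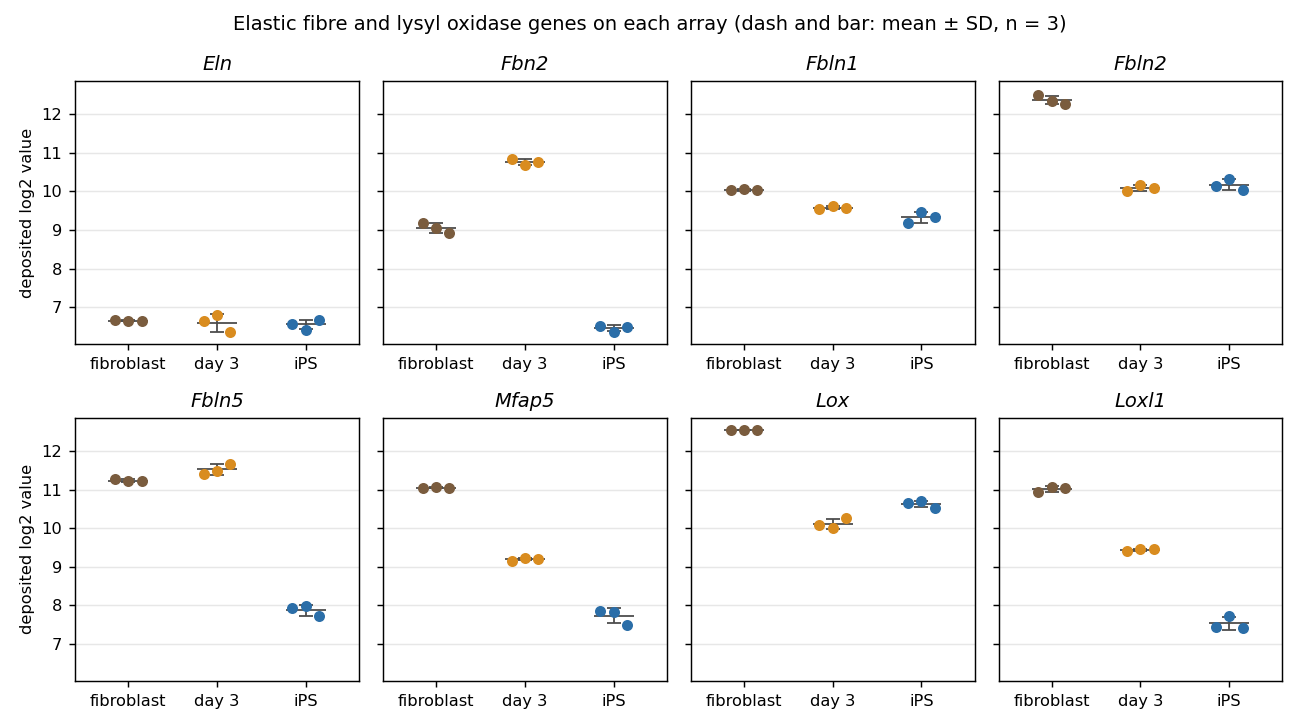
Deposited log2 values of the 8 measured genes (vertical axis) on each array of the 3 groups (horizontal axis); points are arrays, and the dash and bar are the mean ± SD of 3 arrays. Fbn2 is highest at day 3, Fbln5 drops from 11.52 at day 3 to 7.87 in iPS cells, Lox and Fbln2 drop at day 3 and stay near 10 or above, Loxl1 and Mfap5 drop in both steps, and Eln stays between 6.35 and 6.80.

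Eln, which encodes tropoelastin, the fibre core, read 6.67, 6.64 and 6.64 on the fibroblast arrays, 6.64, 6.80 and 6.35 at day 3 and 6.57, 6.42 and 6.67 in iPS cells. The 3 groups overlapped in every comparison. Its log2 difference was -0.05 ± 0.11 SE at day 3 against fibroblasts (95% interval -0.30 to 0.19; limma, Benjamini-Hochberg adjusted p = 0.735) and -0.09 ± 0.11 for iPS cells against fibroblasts (-0.34 to 0.15; adjusted p = 0.516). All 9 readings lay within 1 log2 unit of the array medians, and signal over background was not measured.

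Among the microfibril genes, Fbn2 rose and then fell, and Mfap5 fell in both steps. Fbn2 encodes fibrillin-2, a microfibril subunit known best from embryonic tissue. It read 9.19, 9.05 and 8.93 in fibroblasts, 10.83, 10.69 and 10.77 at day 3, and 6.50, 6.36 and 6.49 in iPS cells, so that no 2 groups overlapped and day 3 stood highest. At day 3 it was 3.27-fold above fibroblasts (log2 difference 1.71 with an SE of 0.09 over 3 arrays a group; adjusted p = 3.01e-08 by limma with Benjamini-Hochberg adjustment), the 175th largest rise of 19937 genes. From day 3 to iPS cells it fell 20.0-fold (-4.32 ± 0.09; limma adjusted p = 2.16e-11), the 20th largest fall. It ended 6.10-fold below fibroblasts (-2.61 ± 0.09). Of all genes, 0.381% took this course, called higher at day 3 and then called lower in iPS cells than in both other groups.

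Mfap5 encodes a microfibril-associated glycoprotein (MAGP-2) that binds fibrillins. Its values were 11.05, 11.07 and 11.03 in fibroblasts, 9.16, 9.23 and 9.21 at day 3 and 7.84, 7.83 and 7.50 in iPS cells. Every group was separate from the next. The first step was -1.85 ± 0.10 (limma, Benjamini-Hochberg adjusted p = 3.35e-08) and the second -1.47 ± 0.10 (limma adjusted p = 1.15e-07), -3.32 in all, of which 55.7% on the log2 scale was present at day 3. The 2 steps were not called different from each other (difference 0.38 ± 0.16; limma adjusted p = 0.0892).

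Of the fibulins, Fbln1 encodes a basement membrane and elastic fibre protein that binds fibronectin as well. It read 10.03, 10.07 and 10.03 in fibroblasts, 9.54, 9.62 and 9.57 at day 3 and 9.19, 9.47 and 9.34 in iPS cells. The groups did not overlap, but the differences stayed under 2-fold: -0.47 ± 0.08 for the first step (limma, Benjamini-Hochberg adjusted p = 0.000617), -0.24 ± 0.08 for the second (limma adjusted p = 0.0331) and -0.71 ± 0.08 over the whole course (limma adjusted p = 1.39e-05). It was therefore not called. Non-overlap by itself was common, at 65% of all genes in iPS cells against fibroblasts.

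Fbln2 encodes a large fibulin that also binds fibronectin and basement membrane proteins. Its values were 12.49, 12.35 and 12.27 in fibroblasts, 10.02, 10.16 and 10.10 at day 3 and 10.14, 10.32 and 10.04 in iPS cells. All fibroblast arrays stood above all others, and day 3 overlapped iPS cells. It fell 4.84-fold at day 3 (-2.27 ± 0.09; limma, Benjamini-Hochberg adjusted p = 7.54e-09), and iPS cells then differed from day 3 by 0.07 ± 0.09 (limma adjusted p = 0.584). The whole course came to -2.20 ± 0.09 (limma adjusted p = 2.02e-09).

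Fbln5 encodes the fibulin that carries an integrin-binding RGD sequence and is required for elastic fibre assembly in mice. It read 11.27, 11.21 and 11.21 in fibroblasts, 11.41, 11.48 and 11.67 at day 3 and 7.92, 7.99 and 7.71 in iPS cells. Day 3 stood slightly above fibroblasts, by 0.29 ± 0.10 (limma, Benjamini-Hochberg adjusted p = 0.0269), which is under 2-fold and was not called. From day 3 to iPS cells it fell 12.5-fold (-3.65 ± 0.10; limma adjusted p = 9.6e-11), the 54th largest fall, and it ended 10.2-fold below fibroblasts. Fbln2 and Fbln5 thus lost their level in different steps: the second step minus the first was 2.35 ± 0.16 for Fbln2 and -3.94 ± 0.16 for Fbln5 (limma, Benjamini-Hochberg adjusted p = 3.62e-07 and 8.06e-09), where 9.91% of all genes were called in the direction of Fbln5 and 12.9% in that of Fbln2, 22.8% in all.

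Of the crosslinking enzymes, Lox encodes the founding lysyl oxidase, made as a proenzyme that bone morphogenetic protein 1 (BMP1) cleaves. It read 12.55 on each of the 3 fibroblast arrays, 10.07, 10 and 10.25 at day 3 (to 2 decimals), and 10.65, 10.69 and 10.53 in iPS cells. Fibroblasts were highest and day 3 lowest, with no overlap between any 2 groups. Lox fell 5.44-fold at day 3 (-2.44 ± 0.08; limma, Benjamini-Hochberg adjusted p = 1.96e-09), the 122nd largest fall. It stood at 0.52 ± 0.08 above day 3 in iPS cells (limma adjusted p = 0.000274), under 2-fold and not called, and 3.80-fold below fibroblasts (-1.93 ± 0.08; limma adjusted p = 2.52e-09). The second step exceeded the first by 2.96 ± 0.15 (limma adjusted p = 2.64e-08). The 3 fibroblast values spanned 0.00692.

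Loxl1 encodes the lysyl oxidase-like enzyme that binds fibulin-5 and works mainly on elastin. Its values were 10.93, 11.07 and 11.04 in fibroblasts, 9.41, 9.45 and 9.45 at day 3 (2 of these exactly equal) and 7.45, 7.73 and 7.41 in iPS cells. Each group lay wholly below the one before. The steps were -1.58 ± 0.09 (limma, Benjamini-Hochberg adjusted p = 8.84e-08) and -1.90 ± 0.09 (limma adjusted p = 1.06e-08), 11.2-fold in all, of which 45.3% on the log2 scale was present at day 3. The steps were not called different (-0.33 ± 0.16; limma adjusted p = 0.129).

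**Figure D2:**
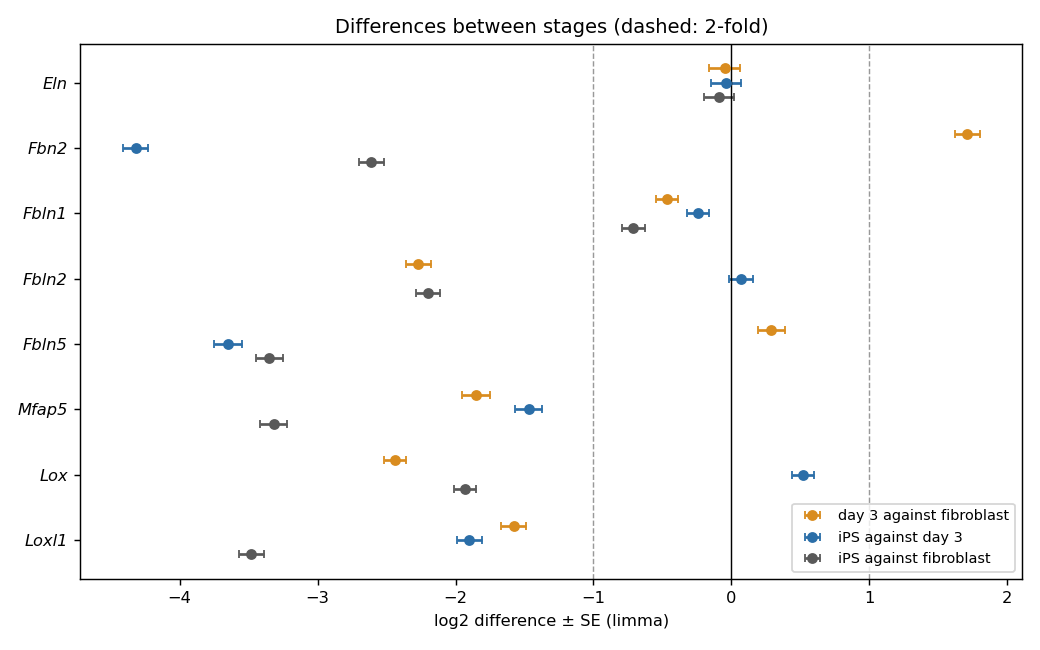
Log2 differences between stages (horizontal axis, ± SE from limma, n = 3 arrays per group) for the 8 measured genes (vertical axis); dashed lines mark 2-fold. The first-step points of Lox and Fbln2 lie below -2 with second-step points near or above 0, whereas the second-step points of Fbn2 and Fbln5 lie below -3 with first-step points above 0.

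At day 3 against fibroblasts, then, Lox, Fbln2, Mfap5 and Loxl1 were lower, Fbn2 was higher, and Eln, Fbln1 and Fbln5 were not called. That is 4 lower and 1 higher of 8, where 7.58% of all genes were called lower and 3.25% higher, 10.8% in all. The median of the 8 was -1.02, against 0.05 over all genes. From day 3 to iPS cells Fbn2, Fbln5, Loxl1 and Mfap5 were lower, none was higher and the other 4 were not called, where 8.57% of all genes were called lower and 6.48% higher, 15.1% in all. The median was -0.86, against -0.01. Only Loxl1 and Mfap5 among the 8 were called lower in both steps, a course that 1.13% of all genes took. Lox and Fbln2 were called lower in the first step alone (5.46% of all genes) and Fbln5 in the second alone (5.98%). Eln and Fbln1 were called in neither step, like 77.9% of all genes. By non-overlap of the arrays alone, 5 of the 8 were lower and 2 higher at day 3, where 28.3% and 24.8% of all genes were, 53.1% in all. In the second step 5 were lower and 1 higher, against 25.3% and 24.2%, 49.5% in all, and over the whole course 7 were lower and none higher, against 31.8% and 33.1%. The comparisons share arrays: day 3 enters both steps, and the fibroblast arrays enter both the first step and the whole course.

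**Figure D3:**
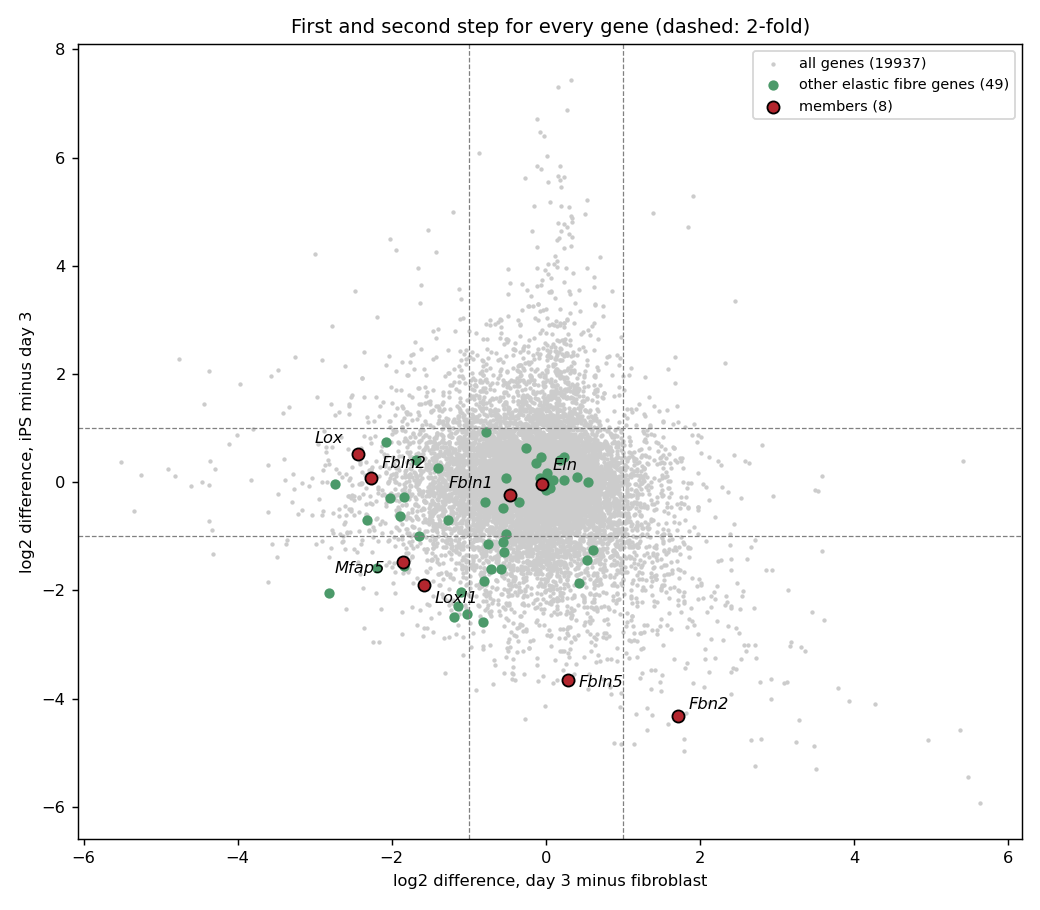
Log2 difference in the first step (horizontal axis, day 3 minus fibroblast) against the second (vertical axis, iPS minus day 3), both from means of 3 arrays, for all 19937 genes (grey), 49 other elastic fibre genes (green) and the 8 members (red); dashed lines mark 2-fold, and the axes share the day 3 arrays with opposite sign. Loxl1 and Mfap5 lie past 2-fold on both axes at the lower left, Lox and Fbln2 at the left, Fbln5 at the bottom, and Fbn2 alone of the 8 at the lower right.

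Some cell type markers also changed between the groups. Of all genes, 7.58% were called lower and 3.25% higher at day 3, and 8.57% and 6.48% in the second step. Over the whole course the shares were 13.8% and 7.63%, and every marker count here is read against these shares. Of 11 fibroblast markers, 5 were lower and 1 higher at day 3, 7 lower and 1 higher in the second step, and 9 lower with none higher in iPS cells against fibroblasts. Their summed level, as the log2 of summed linear values, ranged from 15.17 to 15.22 over the fibroblast arrays, 14.78 to 14.83 over those of day 3 and 13.31 to 13.52 over the iPS arrays. At day 3 the falls were largest in Lum and the proteoglycan gene Dcn, at -5.51 and -4.44. The platelet-derived growth factor receptor gene Pdgfrb fell by 2.76 and the surface marker gene Thy1 fell by 2.41, whereas the transcription factor gene Twist1 rose by 1.24. The collagen genes Col1a2, Col3a1 and Col1a1 stood at 0.60, 0.59 and 0.11 and the vimentin gene Vim at 0.02, none of them called. The iPS arrays, the only group grown on feeder fibroblasts, read 11.20, 11.71 and 11.48 for Col1a1. Dcn, the 1 marker of the 11 called higher in the second step, rose from a mean of 7.07 at day 3 to 8.53 (log2 difference 1.45 ± 0.10, limma, Benjamini-Hochberg adjusted p = 2.47e-07). It remained 7.93-fold below its fibroblast mean of 11.51. In the second step Twist1 fell by 3.08, Pdgfra fell by 2.84, Col3a1 fell by 2.30 and Thy1 fell by 1.70. The part of feeder cells in the iPS readings of Lox, Fbln1 and Fbln2 was not tested. Of 8 smooth muscle markers 2 were lower at day 3, and in iPS cells against fibroblasts 5 were lower and Des higher; their summed level was 14.15 to 14.19, 13.85 to 13.98 and 12.53 to 12.56. Of 10 macrophage markers 4 were lower at day 3 and none higher, and their summed level was 10.67 to 10.78, 9.16 to 9.34 and 10.26 to 10.27 in the 3 groups in turn. In iPS cells against fibroblasts 4 were lower, namely Lyz2, Cd53, C1qb and Fcer1g at -3.14, -2.90, -1.49 and -1.22, and Cd68 was 4.30-fold higher. Of 8 endothelial markers none was called at day 3 (limma, 2 at an unadjusted p under 0.05), and Pecam1 was higher in iPS cells; their summed level was 8.68 to 8.72, 8.65 to 8.94 and 9.84 to 9.89. Of 8 chondrocyte markers Sox9 alone was called, lower at day 3 and in iPS cells than in fibroblasts, and the summed level was 10.24 to 10.26, 9.18 to 9.55 and 9.36 to 9.51. The part of any of these cell types in the results was not tested.

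Among the other listed elastic fibre genes, which also include receptor genes and genes of elastin-degrading enzymes, calls ran downward alone. Of 51 listed, 49 were measured; 17 were lower and none higher at day 3, 17 lower and none higher from day 3 to iPS cells, and 28 lower and none higher over the whole course. Of all genes, 7.58% were called lower and 3.25% higher at day 3, 8.57% and 6.48% in the second step, and 13.8% and 7.63% over the whole course, and the counts by role that follow are read against the same shares. Their medians were -0.56, -0.37 and -1.26, against 0.05, -0.01 and 0.05 over all genes. The list was made with earlier results of these data known. Several falls ended at means below every array median, where signal over background was not measured and fold sizes are uncertain. Among them were Efemp1, Tll1 and Adamts6 in iPS cells, at 5.74, 5.67 and 5.25, and Mfap4 and Mmp9 at day 3, at 5.91 and 5.48. Calls close to 2-fold were lost when limma tested against 2-fold itself (treat): at day 3 those of Mfap2, Vcan, Adamts6 and Mmp2, in the second step those of Atp7a, Emilin2 and Adamts10, and over the whole course those of Mfap4, Adamtsl5, Fn1, Ctsa and Mmp9.

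**Figure D4:**
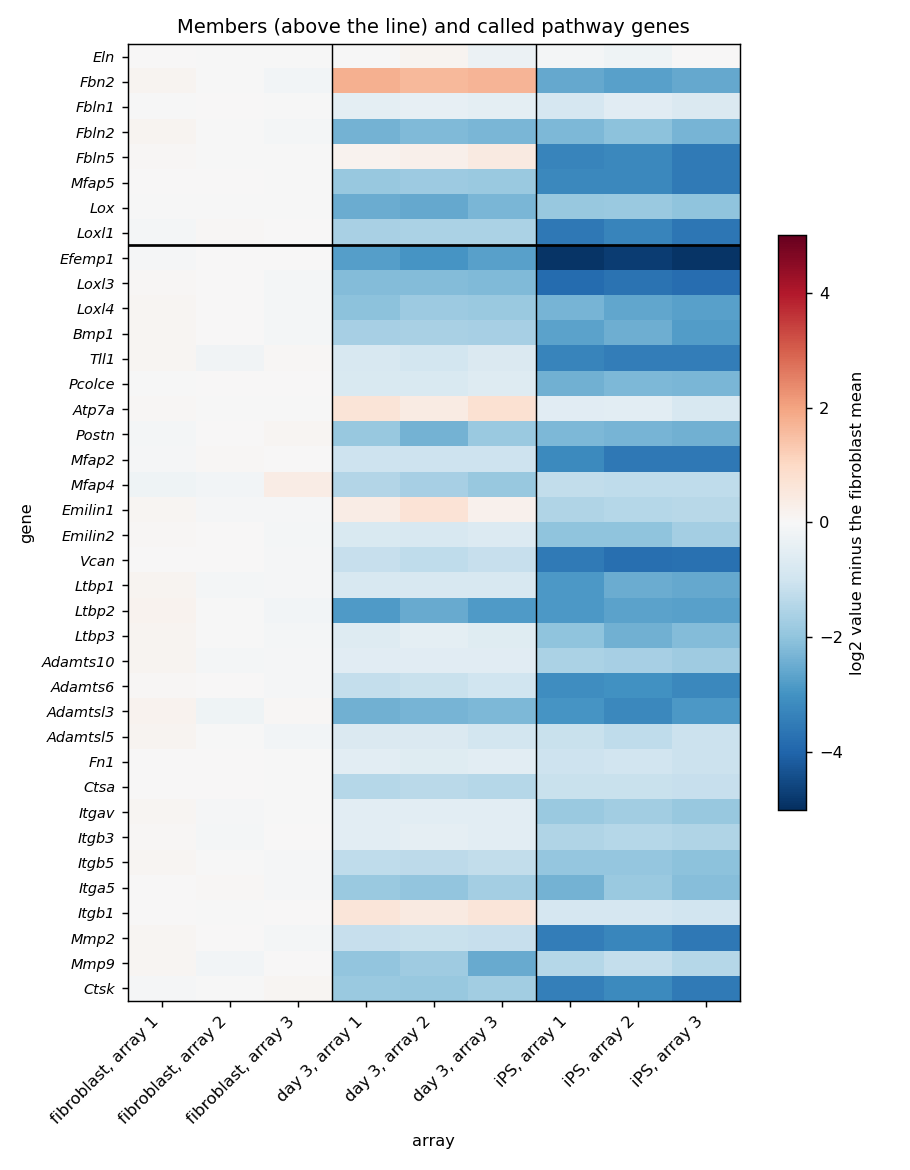
Log2 value on each array (columns) minus the fibroblast mean of that gene, for the 8 members (above the line) and the 30 other elastic fibre genes called in at least 1 comparison (below it); blue is lower and red higher. Differences run from -4.91 to 1.77, most genes turn blue at day 3 or in iPS cells, and Fbn2 is the reddest at day 3.

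Among the crosslinking genes, 4 of 9 were lower at day 3, 4 in the second step and 6 over the whole course. Loxl3, a lysyl oxidase-like enzyme, read 11.63, 11.58 and 11.46 in fibroblasts, 9.37, 9.37 and 9.36 at day 3 and 7.72, 7.86 and 7.74 in iPS cells. It thus fell in both steps, with differences of -2.19 ± 0.08 and -1.59 ± 0.08 (limma, Benjamini-Hochberg adjusted p = 2.24e-09 and 1.02e-08). Loxl4 fell by 1.89 ± 0.11 at day 3, -2.22 on its other row. Bmp1, whose product activates Lox, fell by 1.65 ± 0.10 at day 3 and stood at -0.99 ± 0.10 in the second step, just inside 2-fold. Its relative Tll1 and the enhancer gene Pcolce were called in the second step, at -2.58 and -1.60, and not in the first, at -0.82 and -0.71. Postn, whose product periostin binds BMP1, fell by 2.02 ± 0.13 at day 3. Of the copper supply genes, the copper transporter gene Atp7a stood at 0.61 ± 0.10 at day 3, under 2-fold, and then fell by 1.25 ± 0.10, and the copper chaperone gene Atox1 stood at 0.55 in both day 3 and iPS cells against fibroblasts and was not called.

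Among the microfibril-associated genes, 3 of 9 were lower at day 3 and 5 over the whole course. Mfap2, which encodes the close relative of Mfap5 (MAGP-1), read 10.66, 10.78 and 10.76 in fibroblasts, 9.71 on all 3 day-3 arrays and 7.54, 7.15 and 7.15 in iPS cells. Its first step of -1.02 ± 0.10 lay at the 2-fold line and its second was -2.43 ± 0.10 (limma, Benjamini-Hochberg adjusted p = 7.97e-06 and 4.18e-09); the first was not called after quantile normalization, at -0.90, nor without the second fibroblast array, at -1.0 and just inside 2-fold. Mfap4 fell by 1.68 at day 3. Emilin1, which encodes an elastin interface protein, stood at 0.43 ± 0.11 at day 3, not called, and then fell by 1.86 ± 0.11. Its relative Emilin2 was called in the second step and over the whole course, at -1.14 and -1.90. The versican gene Vcan fell in both steps, at -1.19 and -2.49.

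Of the fibulin relatives, Efemp1 (fibulin-3) fell from 10.55, 10.62 and 10.60 in fibroblasts to 7.85, 7.64 and 7.87 at day 3 and 5.68, 5.83 and 5.70 in iPS cells. The steps were -2.81 ± 0.09 and -2.05 ± 0.09 (limma, Benjamini-Hochberg adjusted p = 1.03e-09 and 3.22e-09). Fbln7, Hmcn1 and Hmcn2 were not called in any of the 3 comparisons, although 6 of the 77 rows of Hmcn1 were called at day 3 and 7 between iPS cells and fibroblasts. Efemp2 (fibulin-4) was not analysed here. Of the latent TGF-beta binding protein genes, Ltbp2 fell by 2.73 ± 0.11 at day 3 with -0.04 in the second step, Ltbp1 and Ltbp3 fell in the second step, at -1.83 and -1.61, and Ltbp4, whose product helps fibulin-5 reach microfibrils, differed by at most 0.19 and was not called.

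Of 9 ADAMTS family and fibronectin genes, 2 were lower at day 3 and 5 over the whole course. Adamtsl3 fell by 2.32 ± 0.12 and Adamts6 fell by 1.10 ± 0.08 at day 3, the latter -0.96 and not called after quantile normalization. Adamts10 was called in the second step and over the whole course, at -1.11 and -1.68. Fn1, fibronectin, and Adamtsl5 were called only over the whole course, at -1.03 ± 0.07 and -1.16 ± 0.10. Of 8 receptor genes 3 were lower at day 3, namely Ctsa, Itgb5 and Itga5 at -1.40, -1.27 and -1.84, and 5 over the whole course, where the integrin gene Itgav, whose product binds RGD sequences, stood at -1.82 and its partner gene Itgb3 at -1.47. Itgb1 was 0.54 above fibroblasts at day 3, not called, and fell by 1.43 in the second step. Of 6 genes of elastin-degrading enzymes, Mmp2, Mmp9 and Ctsk were lower at day 3, at -1.14, -2.08 and -1.84, and again over the whole course, at -3.43, -1.35 and -3.37, and Mmp12, Ctss and Elane were not called.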

How the data were processed

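The deposited table holds the authors' log2 expression values for 34760 rows and 9 arrays of an Affymetrix-labelled mouse whole-transcript platform. Per the labels, total RNA was extracted with Trizol and biotin-labelled. Neither software nor normalization is given in the sources used here, and the log2 scale is read from the values, 2.12 to 14.02. Values were used as deposited. Gene symbols came from the platform annotation: 21640 rows carried 1 symbol, 1321 several (not used) and 11799 are unnamed here. Where a gene had several rows, the one of highest mean over all arrays stood for it, giving 19937 genes. One limma model (limma 3.58.1, R 4.3.3), tested on simulated data, held all 9 arrays and no covariate. All genes at or past 2-fold had an adjusted p of 0.0225 or lower in the 3 comparisons between groups, so the fold set the calls. The members and lists were chosen with earlier results of these data known. Named genes are all members and, of the other listed genes, those called plus Efemp2, Loxl3, Loxl4, Bmp1, Mfap2, Ltbp4 and Emilin1; the uncalled Atox1, Fbln7, Hmcn1, Hmcn2, Mmp12, Ctss and Elane, and the cell type markers beyond 4 a list, were named after their values were seen. Alternatives were another scaling, row choice, filter, call rule, pairwise fits, a replicate block and each array left out. Promoter sequences are from RefSeq, GRCm38.p6. Any gene on 1 chromosome was left out before members were matched, and sequences of 3 of the 8 measured members are printed. A member on the chromosome left out may still have a sequence in RefSeq. For Eln, Mfap5 and Loxl1 the set of promoter sequences used here held none. Precision is limited by having 3 arrays in each group.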

Additional observations from a re-analysis of the deposited data

How the results depend on the processing

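The calls on members did not change under any alternative run: 5 of 8 at day 3 against fibroblasts, 4 in the second step, 6 over the whole course and 4 between the steps, also without the third fibroblast array and with the replicate block. Same-numbered arrays correlated at -0.098 to 0.062 in their deviations from group means (9 pairs), and other pairs at -0.132 to 0.13 (18 pairs). No pairing by number was seen, though deviations from means of 3 arrays cannot exclude it. The replicate block left 2159, 3001 and 4283 genes called in the 3 comparisons. Uncalled differences near 0 changed sign. Eln at day 3 ranged from -0.16 to 0.07 with 1 array left out, in the second step from -0.17 to 0.06, and between the steps from -0.24 to 0.22, with -0.13 after quantile normalization and -0.05 with equal array medians. Fbln2 in the second step was -0.04 with equal medians and 0.00 to 0.13 with 1 array left out. Ltbp4 at day 3 was -0.04 with equal medians and -0.02 to 0.05 with 1 array left out, and Ltbp2 in the second step -0.10 to 0.06. Over 31 other elastic fibre genes, an analysis added after the data were seen, 15 of 1578 recomputed values lost a call, 6 gained one and 4 changed sign. The number called among all 49 measured ranged from 13 to 17 at day 3, 14 to 19 in the second step and 23 to 29 over the whole course. Testing all array rows, which adds unnamed rows, gave 3585, 4574, 6953 and 6936 calls for the 3 comparisons and the difference between the steps, and limma's test against 2-fold gave 1140 at day 3, 1931 in the second step and 2532 between the steps. Equal medians moved the median gene from 0.05 to -0.12 in iPS cells against fibroblasts and from -0.01 to -0.13 in the second step, and quantile normalization moved the former to -0.08.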

Other observations

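For each measured gene the 3 genes with the most similar course were sought, leaving out genes with clone or predicted names. Similarity was the root mean square difference between profiles centred on their own mean over the 9 arrays. Since differences between 3 groups of arrays set most of these profiles, many genes can come close, and the values are a description. Nearest to Fbn2 was Grb14, with group means of 9.42, 11.24 and 6.97 for fibroblasts, day 3 and iPS cells (difference 0.112; Pearson's r = 0.998 over 9 arrays that share their groups). Lxn and Pam followed at 0.165 and 0.18. Nearest to Fbln5 were Lbh (0.113), Pdzrn3 (0.115) and Vgll3 (0.148), with group means for Lbh of 10.76, 11.11 and 7.44. Lox had Smim3 nearest (0.0955; 9.74, 7.34 and 7.98), then Tmem50b and Slc1a3. Fbln2 had Zmiz1 (0.0786; 11.61, 9.37 and 9.36), Slc6a17 and Dok5. The genes nearest to Mfap5 were Mlkl (0.0871), Ctsk (0.0931) and Mmp19 (0.0963), of which Ctsk and Mmp19 encode matrix-degrading proteases. Loxl1 had Mr1, Arsj and Nfia at 0.105 to 0.119, and Fbln1 had Tspan31, Ttc7b and Cfl1 at 0.0526 to 0.0552. Eln had Lsmem2, Lhfpl1 and Dipk2b at 0.0418 to 0.0456. The group means of Eln were 6.65, 6.60 and 6.56, while its day 3 arrays alone spanned 0.452. Its profile therefore holds mostly array-to-array spread, and these 3 genes are not shown to share a course with it.

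Among the members themselves, Loxl1 and Mfap5 lay closest (0.198; r = 0.991), then Lox and Fbln2 (0.209; r = 0.981), and Lox and Fbn2 lay farthest apart (2.14; r = -0.0825). The same 9 arrays underlie all 28 pairs.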
